A study of Mus musculus with 36 samples.

Results

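Lymph node homing and egress of T cells were followed at 4 genes, Ccr7, S1pr1, Cd44 and Cd69, in an ATAC-seq data set of mouse splenic CD4 T cells, in which the number of transposase-cut fragments over a region measures how open its chromatin is. Of the 71509 accessible regions (peaks) in the table, 86 were assigned to these genes, because their midpoint lay nearest to a protein-coding transcription start site (TSS) of a member in the GENCODE annotation of GRCm39 or because they overlapped its gene body. There were 19 peaks for Ccr7, 30 for S1pr1, 25 for Cd44 and 12 for Cd69. Each had enough reads to be tested, and their widths ran from 210 to 15170 bp with a median of 1020 bp. Only 18 of the 86 overlapped a member's gene body, so the nearest gene was a label of position, and which gene a distant peak acts on was not measured.

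The 36 libraries fell into 12 groups of 3, defined by mouse line (HP1α or HP1γ), genotype (WT or KO) and condition (naive, Tconv or TconvTreg). HP1α KO mice carried a floxed Hp1a allele deleted by CMV-cre, a deleter active in the whole animal, and their WT controls were Hp1a+/+ littermates. HP1γ KO mice were Hp1g flox/flox with Cd4-cre, which acts in T cells, and their WT controls were floxed littermates without the transgene. All lines were on a mixed 129/Sv and C57BL/6 background and compared as male littermates, young adults by the study's methods. Naive cells were splenic CD4 T cells selected for low surface CD44 among other markers. Tconv were such naive cells recovered as sorted Vβ6+ donor-reactive cells from the spleen 3 weeks after transfer into lethally irradiated hosts, either CD45.1+ B6 or C57BL/6 J, that received C57BL/6 J and semi-allogeneic B6D2F1 bone marrow, and TconvTreg were the same cells transferred together with ex vivo expanded WT regulatory T cells (Treg), which were gated out. The study left out 3 HP1α TconvTreg libraries for low quality (WT replicate 3, KO replicates 2 and 3), so that 33 libraries entered the comparisons, 1 of them alone standing for HP1α KO TconvTreg.

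A naive T cell enters a lymph node from the blood by way of CCR7, the receptor for the chemokines CCL19 and CCL21, and leaves it through S1PR1, the receptor for sphingosine-1-phosphate in lymph and blood. CD69 is an early activation marker that binds S1PR1, has it taken off the surface and so keeps activated cells in the node. CD44, a receptor for hyaluronan, supports rolling and adhesion in inflamed tissue and is a classical marker of antigen-experienced T cells. HP1α and HP1γ are readers of histone H3 methylated at lysine 9 and take part in gene silencing. The comparisons ask how chromatin at these genes differed between naive cells and Tconv, without either HP1 protein, and with Treg.

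The sequences at the centre of the peaks on which the results below turn are shown in GRCm39, all on the minus strand, which is the direction of all 4 genes. They are from a Ccr7 and a Cd44 peak among those that changed most in Tconv, from 4 peaks called with a knockout or with Treg, and from the 250 bases before the TSS of Ccr7 and of Cd44. Capitals mark matches to the motifs named after them.
Ccr7, 27.8 kb upstream, chr11:99073516-99073815: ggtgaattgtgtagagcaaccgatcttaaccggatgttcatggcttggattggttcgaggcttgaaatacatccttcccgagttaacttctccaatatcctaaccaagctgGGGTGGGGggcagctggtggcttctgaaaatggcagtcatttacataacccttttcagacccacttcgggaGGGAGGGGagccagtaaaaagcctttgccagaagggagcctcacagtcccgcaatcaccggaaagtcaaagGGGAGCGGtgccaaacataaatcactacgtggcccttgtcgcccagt
Ccr7, 13.2 kb upstream, chr11:99058981-99059280: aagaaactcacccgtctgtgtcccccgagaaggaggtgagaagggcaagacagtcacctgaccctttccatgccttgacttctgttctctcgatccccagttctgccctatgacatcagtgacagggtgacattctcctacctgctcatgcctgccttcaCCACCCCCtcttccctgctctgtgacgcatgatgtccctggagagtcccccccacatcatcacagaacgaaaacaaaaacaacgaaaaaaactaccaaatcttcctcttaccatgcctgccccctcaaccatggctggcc
Ccr7 promoter, chr11:99045912-99046161: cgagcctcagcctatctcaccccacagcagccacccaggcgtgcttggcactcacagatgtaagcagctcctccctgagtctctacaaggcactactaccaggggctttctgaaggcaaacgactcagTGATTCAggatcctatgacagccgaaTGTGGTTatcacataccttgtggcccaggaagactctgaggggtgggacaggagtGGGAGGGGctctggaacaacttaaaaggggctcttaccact
S1pr1, 74.1 kb upstream, chr3:115582691-115582990: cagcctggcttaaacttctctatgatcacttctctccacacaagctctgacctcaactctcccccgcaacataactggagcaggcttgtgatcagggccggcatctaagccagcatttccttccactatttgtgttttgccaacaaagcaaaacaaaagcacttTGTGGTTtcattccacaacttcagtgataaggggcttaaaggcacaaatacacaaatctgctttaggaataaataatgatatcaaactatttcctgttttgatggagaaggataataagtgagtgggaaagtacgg
Cd44, 79.9 kb upstream, chr2:102811781-102812080: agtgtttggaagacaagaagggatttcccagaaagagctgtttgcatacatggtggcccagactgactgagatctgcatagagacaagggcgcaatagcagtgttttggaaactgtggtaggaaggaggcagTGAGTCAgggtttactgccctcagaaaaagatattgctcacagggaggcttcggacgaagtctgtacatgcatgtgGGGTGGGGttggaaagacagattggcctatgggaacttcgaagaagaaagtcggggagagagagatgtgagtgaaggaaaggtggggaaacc
Cd44, 55.4 kb upstream, chr2:102787216-102787515: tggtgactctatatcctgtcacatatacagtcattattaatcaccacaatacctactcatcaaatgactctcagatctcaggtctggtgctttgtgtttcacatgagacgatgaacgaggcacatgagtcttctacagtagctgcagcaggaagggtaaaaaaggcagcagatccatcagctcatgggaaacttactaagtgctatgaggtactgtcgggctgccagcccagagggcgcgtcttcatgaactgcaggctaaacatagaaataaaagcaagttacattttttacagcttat
Cd44, 36.4 kb into the gene, chr2:102695456-102695755: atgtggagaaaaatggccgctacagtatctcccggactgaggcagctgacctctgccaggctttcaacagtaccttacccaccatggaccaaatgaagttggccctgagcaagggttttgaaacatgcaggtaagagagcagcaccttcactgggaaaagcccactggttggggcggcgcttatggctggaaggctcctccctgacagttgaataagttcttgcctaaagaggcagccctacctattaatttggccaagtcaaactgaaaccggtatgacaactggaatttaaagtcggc
Cd44 promoter, chr2:102732011-102732260: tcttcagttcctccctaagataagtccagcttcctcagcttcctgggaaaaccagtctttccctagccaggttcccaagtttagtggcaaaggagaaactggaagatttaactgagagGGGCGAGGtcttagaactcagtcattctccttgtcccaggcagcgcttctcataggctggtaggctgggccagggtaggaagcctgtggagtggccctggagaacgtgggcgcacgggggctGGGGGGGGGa
The capitals are the AP-1 motif TGANTCA at base 129 of the Ccr7 promoter and base 133 of the peak 79.9 kb upstream of Cd44, the RUNX motif TGTGGTT at base 155 of the Ccr7 promoter and base 165 of the S1pr1 peak, and, in all other places, the KLF motif CCNCNCCC, bound by the family of KLF2, or the reverse complement of it. Bases are counted from 1 at the 5′ end as printed. The peaks 55.4 kb upstream of Cd44 and 36.4 kb into it held none of the 8 motifs searched. The first 130 bases of the window 36.4 kb into Cd44 are coding sequence of exon 2, and its peak spans that exon and the introns beside it. A match of such short letters is a description and no binding site.

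The libraries held 1.49 to 96.8 M reads in peaks. The T cell genes had open start sites throughout, with medians of 6.49 for Cd3e and 6.83 for Cd3d on the log2 scale of CPM in naive cells. The Cd4 TSS peak was at 9.0 to 9.51 in the 9 HP1γ KO libraries and at 5.81 to 6.89 in the 24 others, and only the former carry the Cd4-cre transgene. Of the CD8 markers Cd8a had no TSS peak and Cd8b1 was at 4.88 to 5.17 in naive cells against 1.44 to 3.12 in Tconv. No TSS peak was present for Lyz2, Csf1r, Ncr1 or Klrb1c, while Spi1, Itgam and Cd14 had low ones. Pax5, a B cell gene, was at 1.99 to 3.72 CPM in the naive libraries against 4.52 to 6.76 in Tconv, without overlap. In HP1γ WT its log2 fold change was 0.81 (adjusted p = 0.00273, edgeR). Foxp3 was open in naive cells (median 6.96) as in Tconv (6.67). The part of these in the differences between naive cells and Tconv was not tested. The labels do not say that replicates are separate animals, so p-values measure the spread between these libraries, which may in part be technical.

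At the start sites, Ccr7 stood apart from the other members. Its TSS peak (chromosome 11, 99032431 to 99047600), which spans the whole gene, had a log2 CPM (CPM, the reads in a peak scaled to the library's reads in peaks, with a prior count of 2) of 8.39 to 8.88 (median 8.49) in the 12 naive libraries. In the 12 Tconv libraries it was 6.68 to 7.17 (median 6.99), and in the 9 TconvTreg libraries 6.32 to 7.10 (median 7.04). No transferred library reached the lowest naive library. The TSS peak of S1pr1 (chromosome 3, 115499871 to 115510530) was at 7.24 to 7.97 (median 7.5) in naive cells, 6.56 to 7.17 (median 6.96) in Tconv and 6.76 to 7.23 (median 6.95) in TconvTreg, where the highest library fell short of the lowest naive library by a narrow margin. The TSS peak of Cd44 (chromosome 2, 102728791 to 102732310) went the other way, at 4.22 to 4.90 (median 4.62) in naive cells against 5.12 to 5.83 (median 5.49) in Tconv, and at 4.80 to 5.67 (median 5.36) in TconvTreg, which overlapped the naive range. The TSS peak of Cd69 (chromosome 6, 129248641 to 129254230) was level, at 6.64 to 7.04, 6.46 to 6.97 and 6.06 to 6.88.

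**Figure D1:**
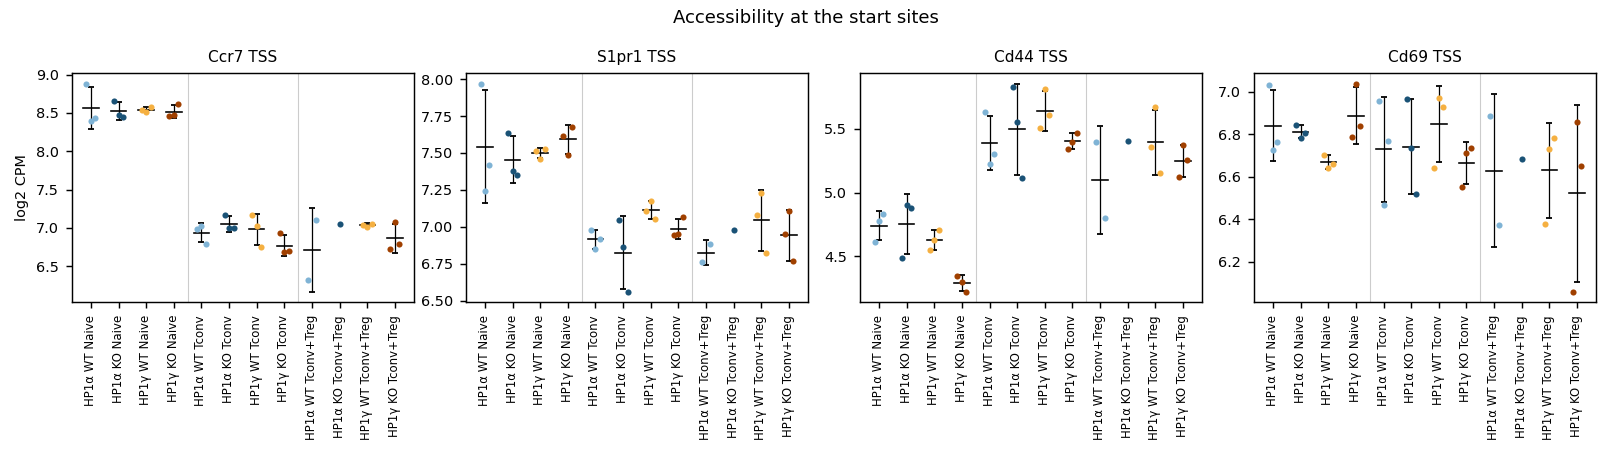
Log2 CPM of the TSS peak of each gene (vertical axis, a separate scale for each panel) in the 12 groups (horizontal axis), a point per library kept by the study, with the group mean (line) and SD (bars) where a group has more than 1 library. Ccr7 was at 8.39 or more in each naive library and at 7.17 or less in each transferred library, and the groups of Cd69 overlap.

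Ordered by group mean, the 4 naive groups of Ccr7 came first, at 8.52 to 8.57, and the next group, HP1α KO Tconv, lay 1.47 lower. That was the single gap among the 11 between neighbours that exceeded the larger SD of the pair. Neighbours in the order among the naive groups, and among the 8 transferred groups, did not differ beyond their spread, although groups farther apart in the order could, such as HP1α KO Tconv at 7.05 ± 0.10 and HP1γ KO Tconv at 6.77 ± 0.14 (SD, n = 3 each). For S1pr1, 2 of the 11 gaps did, between naive and transferred groups (0.34) and between HP1α WT Tconv and HP1α WT TconvTreg (0.091). For Cd44 it was also 2, both among the naive groups, with HP1γ KO lowest at 4.29 ± 0.06 (SD, n = 3) below HP1γ WT at 4.63 ± 0.08 (SD, n = 3). For Cd69 it was 0. Per kilobase of peak, the group means were 7.15 to 25.3 CPM for Ccr7, 10.6 to 18.1 for S1pr1, 5.56 to 14.2 for Cd44 and 16.9 to 21.2 for Cd69. By this measure the Ccr7 peak was the densest of the 4 in naive cells and the least dense after transfer.

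Naive cells and Tconv were compared within each line and genotype, which gives 4 comparisons with separate libraries. Ccr7 lost accessibility and Cd44 gained it. A peak was called when its adjusted p (edgeR's quasi-likelihood test, Benjamini-Hochberg over all peaks of the line) was under 0.05 and its absolute log2 fold change over 1. In HP1α WT, 22 member peaks were called with more accessibility in Tconv and 25 with less, beside 24.9% and 17.5% of all peaks. In HP1α KO these were 19 and 28, beside 23.5% and 19.0%. In HP1γ WT they were 23 and 29, beside 24.5% and 22.0%, and in HP1γ KO 20 and 33, beside 22.4% and 20.6%. The 86 peaks as a whole were thus called higher about as often as any peak and lower more often, and the members differed among themselves. Naive cells had been selected for low CD44, so the direction at Cd44 is not independent of the gate. A lower level in such a pool of cells cannot be told apart from fewer cells with an open site.

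Ccr7 had 0 peaks called higher in each of the 4 comparisons and 12 (HP1α WT), 14 (HP1α KO), 14 (HP1γ WT) and 16 (HP1γ KO) of 19 called lower. Its TSS peak fell by 1.58 ± 0.16 (SE) on the log2 scale in HP1α WT (adjusted p = 2.22e-07, edgeR), by 1.43 ± 0.16 in HP1α KO (3.50e-07), by 1.49 ± 0.10 in HP1γ WT (1.75e-10) and by 1.70 ± 0.10 in HP1γ KO (1.41e-10). The changes at distant peaks ran from none called to steeper than at the TSS. The peak 27.8 kb upstream (chromosome 11, 99073261 to 99074070) had log2 CPM of 3.59, 3.60 and 3.60 in HP1γ WT naive cells against -0.51, -0.60 and -0.64 in HP1γ WT Tconv. The 2 groups were far apart and each was tight. Its log2 fold changes were -3.19 and -3.34 in HP1α WT and KO and -4.19 and -3.90 in HP1γ WT and KO. The peak 31.9 kb upstream had -3.22 to -2.61 over the 4 comparisons, that at 13.2 kb upstream -3.07 to -2.39, that at 16.2 kb upstream -2.94 to -2.48 and that at 8.2 kb upstream -1.99 to -1.78. On the other side, the peak 18.2 kb from the TSS, past the end of the gene, had -2.23 to -2.04. In all 4 comparisons 11 of the 19 Ccr7 peaks were called lower, and 3 were called in none. Those 3 lay 23.1, 29.0 and 30.3 kb past the TSS, with log2 fold changes of -0.19 to 0.18, -0.47 to 0.13 and 0.02 to 0.52. The peak 34.4 kb upstream had -1.09 to -0.59 and that at 6.8 kb upstream -1.14 to -0.78, both less than the TSS peak.

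S1pr1 was mixed. At its TSS peak the log2 fold changes were -0.60, -0.57, -0.32 and -0.56 in HP1α WT, HP1α KO, HP1γ WT and HP1γ KO, with adjusted p of 0.00652, 0.0066, 0.00407 and 3.99e-05 in edgeR, so that each was under the fold threshold and none was called. Each naive library nevertheless lay above each Tconv library of its own line and genotype. Of the 30 peaks 10, 12, 12 and 14 were called lower in that order, and 2, 2, 3 and 3 higher. In all 4 comparisons 8 were lower and 1 higher. The peak 48.3 kb past the TSS (chromosome 3, 115460091 to 115460790) was lower in each, at -2.73 to -2.40, as were those 111.0 kb past it (-3.59 to -2.45), 10.4 kb past it (-1.92 to -1.40) and 19.9 kb upstream (-2.30 to -1.62). The peak 32.4 kb past it was called lower in 3 of the 4, at -1.41 to -0.99. The peak 64.3 kb upstream was higher in each, at 1.68 to 3.07, although it was a weak peak, with log2 CPM of -3.23 to -1.69 in naive cells and -1.25 to 0.56 in Tconv. With loess offsets in place of TMM it was 0.47 in HP1α WT and 0.54 in HP1α KO and not called, and in HP1α WT it was also not called without Tconv replicate 2 (1.43) or with the replicate block and depth (1.55). That at 74.1 kb upstream (chromosome 3, 115582331 to 115583350) was called higher in 3 of the 4, with log2 fold changes of 1.78, 1.70 and 1.98 against 0.49 ± 0.39 in HP1γ KO (adjusted p = 0.289, edgeR). The peak 43.9 kb upstream was higher in both HP1γ comparisons, at 1.31 and 1.3, and that at 46.3 kb upstream in HP1γ KO, at 1.2. S1pr1 thus lost accessibility on both sides of the gene and gained it at single peaks far upstream.

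**Figure D2:**
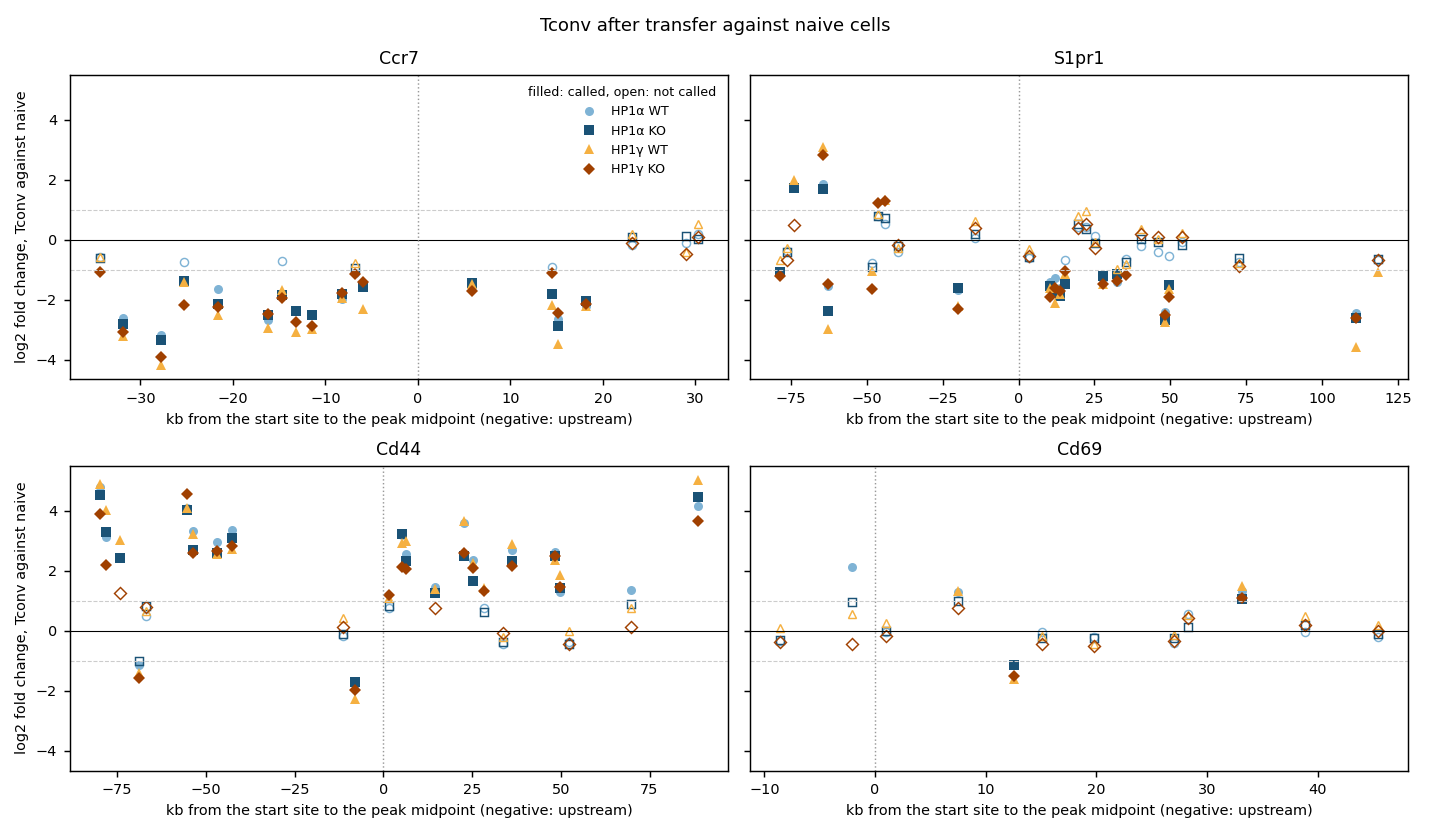
Log2 fold change of Tconv against naive cells (vertical axis) for each member peak by the distance in kb from the TSS to its midpoint, negative upstream (horizontal axis), a panel per gene, a colour and shape per line and genotype, filled where called. Ccr7 has 0 called peaks above 0, and the Cd44 peaks reach 5.04.

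Cd44 had 17 (HP1α WT), 16 (HP1α KO), 18 (HP1γ WT) and 16 (HP1γ KO) of 25 peaks called higher, and 2, 1, 2 and 2 called lower. Its TSS peak passed the fold threshold in HP1γ WT (log2 fold change 1.08 ± 0.11, adjusted p = 9.55e-08, edgeR) and HP1γ KO (1.18 ± 0.13, 3.14e-07). Without WT naive replicate 1 the value in HP1γ WT was just under the threshold and not called. In HP1α WT (0.75 ± 0.17, 0.00111) and KO (0.82 ± 0.16, 2.04e-04) it did not. The largest changes lay far from it. The peak 79.9 kb upstream (chromosome 2, 102811161 to 102812700) had log2 CPM of 0.65, 0.13 and 0.24 in HP1α WT naive cells against 5.15, 4.98 and 4.41 in HP1α WT Tconv, with log2 fold changes of 3.88 to 4.88 over the 4 comparisons. Both groups were well separated. The peak 55.4 kb upstream (102786411 to 102788320) had 4.04 to 4.55 and that at 46.9 kb upstream 2.55 to 2.95. Inside the gene, the peak 88.7 kb past the TSS (102642941 to 102643630), in an exon that includes UTR sequence and nearest to the start site of Slc1a2, a glutamate transporter gene, had 3.65 to 5.04. The peak 28.4 kb into the gene was higher in both HP1γ comparisons, at 1.42 and 1.32. A total of 14 of the 25 peaks were called higher in all 4 comparisons. Against them, the peak 7.9 kb upstream was called lower in all 4, at -2.26 to -1.72, with log2 CPM of 4.87, 5.01 and 4.97 in HP1γ WT naive cells and 3.04, 2.46 and 2.22 in HP1γ WT Tconv. That at 68.8 kb upstream was lower in 3 of the 4, at -1.57 to -0.99, and lost its call in HP1α WT with library size, with loess offsets and without Tconv replicate 1 (-0.99 to -0.94).

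Cd69 had the fewest called peaks. Its TSS peak had log2 fold changes of -0.04 ± 0.15, -0.01 ± 0.14, 0.25 ± 0.15 and -0.17 ± 0.15 in HP1α WT, HP1α KO, HP1γ WT and HP1γ KO, with adjusted p of 0.147 or more in edgeR. Of its 12 peaks 3, 1, 2 and 1 were called higher and 1 lower in each. The peak 33.2 kb past the TSS (chromosome 6, 129218181 to 129220210) rose in all 4, by 1.34 ± 0.17, 1.07 ± 0.16, 1.51 ± 0.16 and 1.10 ± 0.18. Its log2 CPM was 2.88, 2.80 and 2.95 in HP1α WT naive cells and 4.33, 3.90 and 4.05 in HP1α WT Tconv. The peak 12.6 kb past the TSS fell in all 4, with log2 fold changes of -1.60 to -1.09. In HP1α WT the call was lost in 5 of 10 alternatives (-0.96 to -0.91) and without Tconv replicate 1 (-0.67), and in HP1α KO with loess offsets (-0.97) and without Tconv replicate 2 (-0.88). The call at the peak 33.2 kb past the TSS was lost without Tconv replicate 1 in HP1α KO (0.96) and in HP1γ KO (0.95). The peak over the 3′ part of the gene, 7.5 kb past the TSS, was higher in both WT comparisons, at 1.3 and 1.33 (in HP1α WT 0.96 and not called with the replicate block and depth), and that at 2.1 kb upstream in HP1α WT alone, at 2.14, though from a level of -2.25 to -0.36 that rests on few reads.

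Over the 4 comparisons, 16 member peaks were called higher in all (14 of Cd44, 1 of S1pr1 and 1 of Cd69) and 21 lower in all (11 of Ccr7, 8 of S1pr1, 1 of Cd44 and 1 of Cd69). Of all 71509 peaks, 17.7% were higher in all 4 and 14.6% lower in all 4. A further 26 member peaks were called in none, and 0 were called in opposite directions. Depth also differed with condition, at 32.4 to 96.8 M reads in peaks in naive libraries and 6.2 to 78.3 M in Tconv. With log2 depth as a covariate, 52, 49, 53 and 53 member peaks were called in HP1α WT, HP1α KO, HP1γ WT and HP1γ KO, beside 47, 47, 52 and 53 without it.

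**Figure D3:**
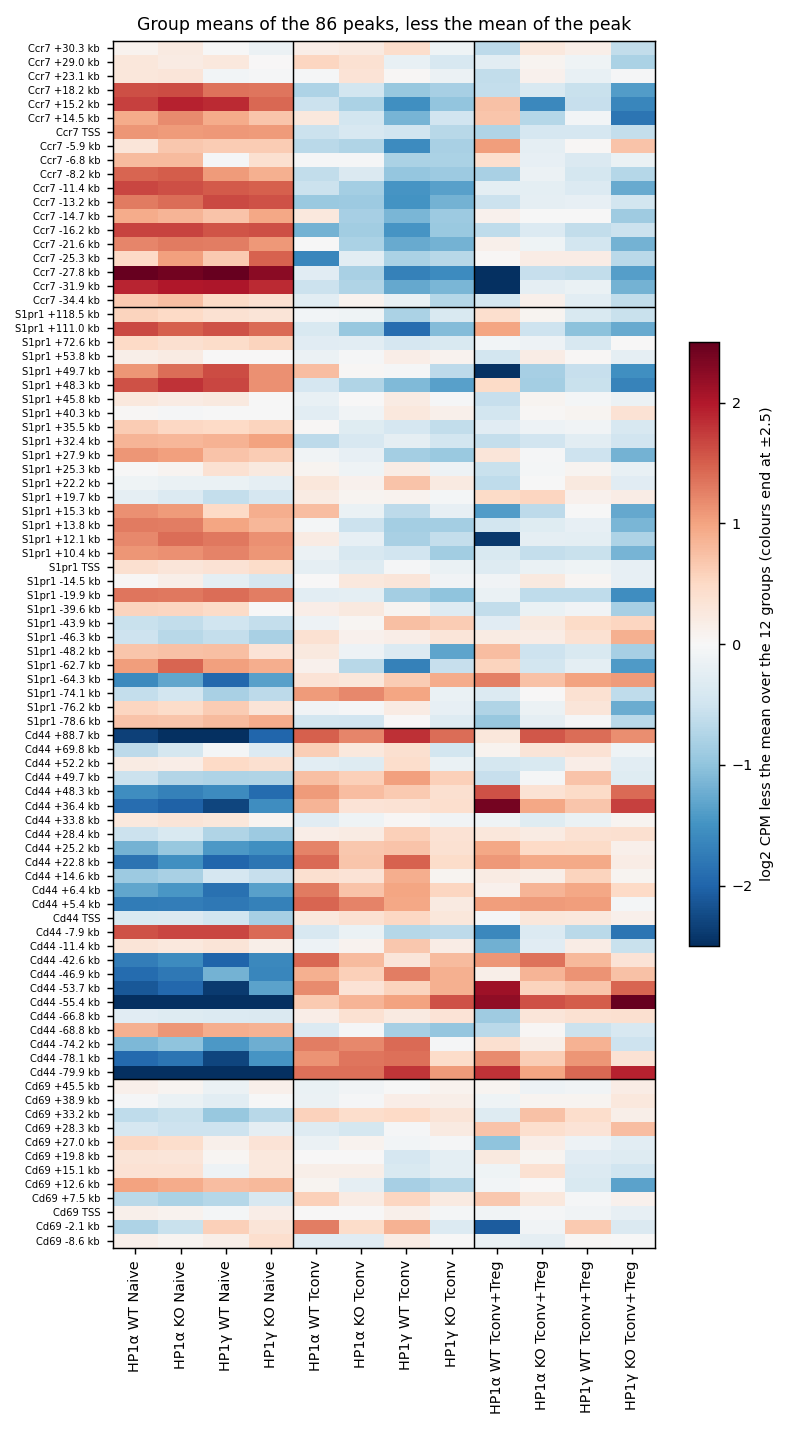
Mean log2 CPM of the 86 peaks (rows, ordered along each gene) in the 12 groups (columns), less the mean of the row over the 12 groups, with colours that end at 2.5 in either direction. Most Ccr7 rows are high in the naive columns, most Cd44 rows are low there, and the Cd69 rows vary least.

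Loss of either HP1 protein left the members' start sites uncalled in each condition. In naive cells 0 of the 86 peaks were called in HP1α KO against WT by edgeR or by DESeq2, beside 0.00559% of all peaks called by edgeR and 0.00979% by DESeq2. At an unadjusted p under 0.05 there were 0 member peaks, beside 1.17% of all peaks. In HP1γ KO against WT naive cells 0 were called by either tool, beside 0.14% of all peaks called by edgeR and 3.27% by DESeq2. At an unadjusted p under 0.05 there were 9 (10.5% of the members), beside 8.98% of all peaks. In HP1α Tconv 0 were called by either tool, beside 0.021% of all peaks called by edgeR and 0.0283% by DESeq2, and 3 (3.49%) had an unadjusted p under 0.05, beside 4.82% of all peaks. In HP1α TconvTreg 0 were called by edgeR, beside 1.63% of all peaks, and 1 by DESeq2, beside 4.57%. An unadjusted p under 0.05 was found for 11 (12.8%), beside 16.3% of all peaks. In each of these comparisons the members' share was thus near or below that of all peaks. The last sets 1 KO library against 2 WT libraries, and a difference may not be detectable at this size. At the TSS peaks, the log2 fold changes of KO against WT were -0.33 to 0.48 for the 4 genes over the 6 comparisons. The 2 extremes were Ccr7 in HP1α TconvTreg (0.48 ± 0.27, adjusted p = 0.400, edgeR) and Cd44 in HP1γ naive cells (-0.33 ± 0.13, adjusted p = 0.460, edgeR), where the 3 KO libraries lay below the 3 WT libraries.

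In HP1γ Tconv, KO cells had 0 member peaks above WT cells and 3 below at the call threshold, beside 1.69% and 1.66% of all peaks. The peak 74.1 kb upstream of S1pr1 had log2 CPM of 2.90, 2.91 and 1.92 in WT and 1.73, 1.64 and 0.92 in KO, with a log2 fold change of -1.26 ± 0.29 (adjusted p = 0.0157, edgeR). Every KO library lay below every WT library, as at 16 of the 86 member peaks, called or not. This S1pr1 peak is the one whose gain over naive cells was called in the other 3 backgrounds. Its levels in naive cells were 0.75, 0.95 and 0.64 in WT and 0.52, 1.35 and 0.98 in KO. The interaction of genotype and activation, which tests that difference itself, was -1.49 ± 0.50 (adjusted p = 0.369, edgeR). The peak 22.8 kb into Cd44 (chromosome 2, 102708951 to 102709450) had 2.2, 1.99 and 1.51 in WT against 1.29, 1.08 and 0.27 in KO, a change of -1.08 ± 0.24 (adjusted p = 0.0119, edgeR). The peak 74.2 kb upstream of Cd44 (102805741 to 102806640) had 2.88, 3.31 and 2.31 against 1.68, 1.9 and 0.57, a change of -1.53 ± 0.36 (adjusted p = 0.0191, edgeR). The count of called peaks was 0 without WT replicate 1 or without KO replicate 3, 1 without WT replicate 2, and 7 without WT replicate 3 or without KO replicate 1.

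In HP1γ TconvTreg 1 member peak was called higher and 4 lower in KO than in WT, beside 6.48% and 5.38% of all peaks, which is no larger a share than for peaks at large. The 86 peaks had a median log2 fold change of -0.33, with 20 above 0, beside a median of -0.02 and 48.6% above 0 for all peaks. Cd44 had 3 of the 5 and S1pr1 the others. The peak 74.2 kb upstream of Cd44 had log2 CPM of 1.66, 3.24 and 1.96 in WT and 0.06, 1.35 and 1.27 in KO, a change of -1.53 ± 0.44 (adjusted p = 0.0198, edgeR). That 5.4 kb into the gene (102726321 to 102726950) had 1.5, 1.9 and 1.96 in WT and 0.18, 1.06 and 0.85 in KO, a change of -1.04 ± 0.25 (adjusted p = 0.00846, edgeR). Near S1pr1, the peak 76.2 kb upstream (115584671 to 115585090) changed by -1.59 ± 0.39 (adjusted p = 0.00818, edgeR), from 1.07, 1.68 and 1.09 to -0.31, 0.01 and -0.50, and that at 48.3 kb past the TSS by -1.14 ± 0.34 (adjusted p = 0.0235, edgeR), from 0.46, 1.14 and 1.0 to -0.50, -0.27 and 0.04. The peak 36.4 kb into Cd44 (102695211 to 102696000) was the higher one, at 2.35, 1.82 and 2.44 in KO against 1.09, 0.79 and 1.69 in WT, a change of 1.09 ± 0.24 (adjusted p = 0.00448, edgeR). KO and WT libraries did not overlap at any of the 5 peaks, which were picked on these same values. Over the 86 peaks, called or not, all KO libraries lay above all WT libraries at 5 and below them at 22. Same-numbered libraries deviated together here, and with the replicate number as a block 8 member peaks were called, beside 14.3% of all peaks. The count was 0 without WT replicate 2, 15 without WT replicate 1, 3 without KO replicate 1, 16 without KO replicate 2 and 8 without KO replicate 3.

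**Figure D4:**
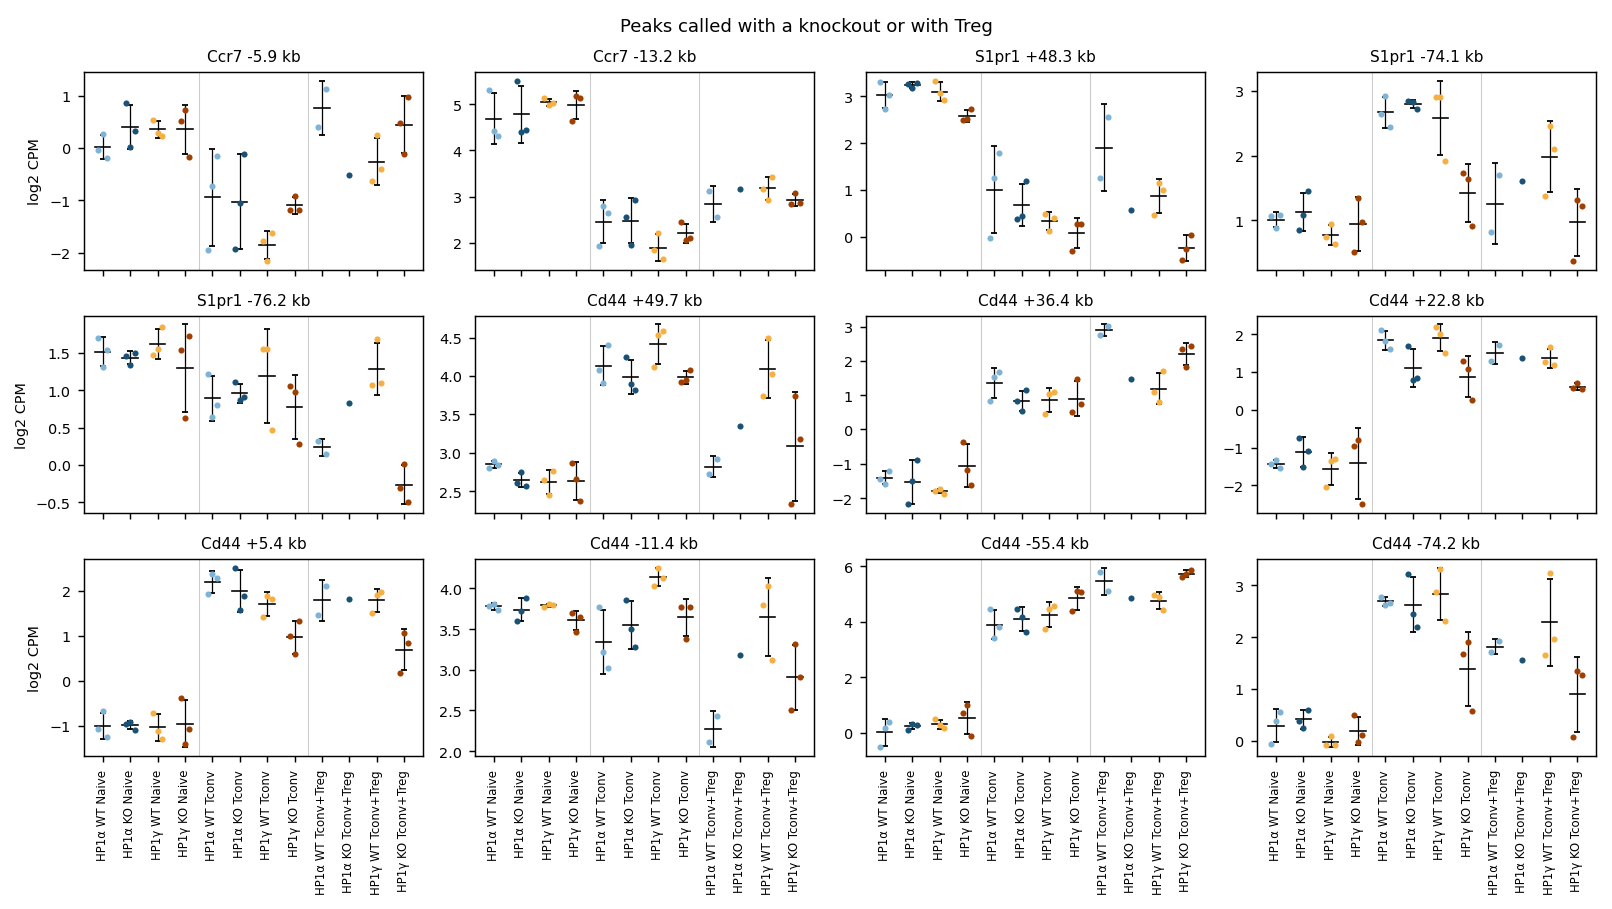
Log2 CPM (vertical axis, a separate scale for each panel) of the 12 member peaks called in a comparison of KO with WT or of TconvTreg with Tconv, in the 12 groups (horizontal axis), a point per library kept by the study, with group mean and SD as lines and bars. The peak 36.4 kb into Cd44 reaches 2.77 and 3.01 in HP1α WT TconvTreg, where HP1α WT Tconv is at 1.66 or less.

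With Treg, no member's start site was called in any background. In HP1α WT, TconvTreg against Tconv gave 2 member peaks called higher and 3 lower, beside 4.92% and 1.84% of all peaks. Cd44 had 4 of them. The peak 55.4 kb upstream was at 5.81 and 5.12 with Treg against 4.46, 3.43 and 3.82 without (log2 fold change 1.59 ± 0.29, adjusted p = 0.00281, edgeR). The peak 36.4 kb into the gene was at 2.77 and 3.01 against 0.84, 1.54 and 1.66 (1.71 ± 0.38, adjusted p = 0.0106, edgeR). In the other direction, that 49.7 kb into the gene (102681361 to 102683240) was at 2.72 and 2.91 against 4.08, 3.91 and 4.41 (-1.33 ± 0.31, adjusted p = 0.013, edgeR), and that 11.4 kb upstream (102742861 to 102744020) at 2.11 and 2.43 against 3.77, 3.22 and 3.03 (-1.38 ± 0.41, adjusted p = 0.0449, edgeR). The peak 74.1 kb upstream of S1pr1 was at 0.82 and 1.70 against 2.64, 2.92 and 2.44 (-1.75 ± 0.43, adjusted p = 0.018, edgeR). The groups did not overlap at any of the 5, which were picked on these same values. Over the 86 peaks, called or not, all libraries with Treg lay above all without at 9 and below them at 22. The values with Treg rest on a library of 12.7 M and a library of 1.49 M reads. In the latter the 5 called peaks held 6 (S1pr1), 10, 14, 15 and 65 reads. Without the larger of them, WT TconvTreg replicate 1, 0 were called, and 3 without WT Tconv replicate 1.

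Markers of other cells also moved in those libraries. Of the B cell markers, Pax5 had a TSS peak, at 13.3 to 17.1 CPM in HP1α WT TconvTreg against 4.59 to 6.33 in HP1α WT Tconv (log2 fold change 1.41, adjusted p = 0.0187, edgeR), while Ms4a1 and Cd79a had none. The summed level of the 6 T cell genes Cd3d, Cd3e, Cd3g, Cd4, Cd5 and Lck was 377 to 543 CPM against 566 to 759. The summed level of the Treg markers Foxp3, Il2ra and Ikzf2 was 111 to 179 CPM against 127 to 173, a sum of opposite changes. Il2ra fell by 1.55 on the log2 scale (adjusted p = 0.00439, edgeR), Ikzf2 rose by 1.06 (adjusted p = 0.00611, edgeR) and Foxp3 had -0.18 (adjusted p = 0.681, edgeR). In HP1γ KO against WT TconvTreg, Ikzf2 had 0.75 (adjusted p = 0.00297, edgeR) and Il2ra -0.64 (adjusted p = 0.0197, edgeR), both under the fold threshold. The myeloid genes with a TSS peak, Spi1, Itgam and Cd14, summed to 17.2 to 17.5 CPM in HP1α WT TconvTreg against 24.9 to 28.9 in HP1α WT Tconv. Itgam passed the call threshold in HP1γ KO against WT TconvTreg, at -1.32 (adjusted p = 0.00906, edgeR), and in HP1γ KO TconvTreg against Tconv, at -1.30 (adjusted p = 0.00879, edgeR). The part of any of these in the calls was not tested.

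In HP1α KO, the 1 library with Treg had 0 member peaks called higher and 1 lower against Tconv, beside 0.264% and 0.284% of all peaks. It was the peak 74.1 kb upstream of S1pr1, at 1.61 against 2.84, 2.82 and 2.72 (-1.19 ± 0.24, adjusted p = 0.028, edgeR), and it was lost without KO Tconv replicate 2. The spread of the 1 library was not measured and was taken to be that of the other groups, so this is no repeat of the result in WT. With all 18 HP1α libraries, which gives 3 KO libraries with Treg, the change was -0.86 (adjusted p = 0.0593, edgeR) and not called. At that peak HP1γ WT and KO had changes with Treg of -0.69 ± 0.28 (adjusted p = 0.194) and -0.43 ± 0.38 (adjusted p = 0.505) in edgeR. In HP1γ WT, 1 member peak was called higher with Treg and 0 lower, beside 0.0671% and 0.0699% of all peaks. This was at Ccr7, 13.2 kb upstream (chromosome 11, 99058271 to 99059990), where the log2 CPM was 1.85, 2.21 and 1.64 in Tconv and 3.17, 2.93 and 3.43 with Treg, a change of 1.23 ± 0.23 (adjusted p = 0.0437, edgeR). All 3 libraries with Treg were higher, and still below the 5.13, 4.98 and 5.02 of naive cells. Same-numbered libraries deviated together in this comparison too, and with the replicate number as a block 1 member peak was called beside 1.61% of all peaks. The peak was not called without WT Tconv replicate 1 or 2, nor without WT TconvTreg replicate 1 or 3, and 2 member peaks were called without WT Tconv replicate 3. Of the 19 Ccr7 peaks 15 had a change above 0, beside 53.1% of all peaks, with a median of 0.81 beside 0.03 for all peaks. In the other backgrounds the Ccr7 median was smaller. It was 0.22 in HP1α WT, 0.19 in HP1α KO and 0.09 in HP1γ KO, beside 0.10, 0.04 and -0.02 for all peaks. The 19 peaks lie at 1 locus and share their libraries, so they are not separate measurements.

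In HP1γ KO, TconvTreg against Tconv gave 2 member peaks called higher and 0 lower, beside 6.10% and 2.06% of all peaks. The peak 5.9 kb upstream of Ccr7 (99051651 to 99051990) was at -1.19, -0.92 and -1.19 in Tconv and 0.47, -0.12 and 0.97 with Treg, a change of 1.63 ± 0.36 (adjusted p = 0.00526, edgeR). That 36.4 kb into Cd44 was at 0.51, 1.46 and 0.73 against 2.35, 1.82 and 2.44, a change of 1.33 ± 0.23 (adjusted p = 0.00116, edgeR). In neither did the groups overlap. Over the 86 peaks, called or not, all libraries with Treg lay above all without at 8 and below them at 9. Pax5 was at 8.32 to 11 CPM in HP1γ KO TconvTreg against 5.07 to 6.45 in HP1γ KO Tconv and 4.08 to 8.47 in HP1γ WT TconvTreg. In HP1γ KO TconvTreg against Tconv, Il2ra had -0.65 (adjusted p = 0.0206, edgeR) and Ikzf2 0.52 (adjusted p = 0.0246, edgeR), both under the fold threshold. Foxp3 had -0.08 (adjusted p = 0.537, edgeR). The part of any of these in the calls of either comparison was not tested. The count was 4 without KO Tconv replicate 3 and 6 without KO TconvTreg replicate 2. The comparisons with Treg and those of KO with WT share the Tconv and TconvTreg libraries, so that a peak named in both, such as this one, was not measured anew.

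The interaction terms, which ask whether KO and WT responded differently, called 0 of the 86 peaks in edgeR and 0 in DESeq2. For genotype and Treg, edgeR called 0.0461% of all peaks in HP1α and 0.0014% in HP1γ, and DESeq2 0.515% and 1.14%. At an unadjusted p under 0.05 there were 7 member peaks (8.14%) in HP1α, beside 10.3% of all peaks, and 9 (10.5%) in HP1γ, beside 12.8%. The HP1α term for genotype and Treg includes the single KO library with Treg, and a difference may not be detectable at this size. For genotype and activation, edgeR called 0.0% of all peaks in HP1α and 0.014% in HP1γ, and DESeq2 0.0014% and 1.93%. At an unadjusted p under 0.05 there were 2 (2.33%) in HP1α, beside 1.8% of all peaks, and 8 (9.30%) in HP1γ, beside 9.51%.

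Other genes of homing and egress were followed at their TSS peaks. Of the 9 genes of the S1P axis with a peak, Sphk1, a kinase that makes sphingosine-1-phosphate, rose in all 4 comparisons of Tconv with naive cells, by 1.14 to 1.52 on the log2 scale, and Spns2, a transporter that exports it, in 3, by 1.42, 1.46 and 2.30 in HP1α WT, HP1α KO and HP1γ WT (edgeR). Klf2, a transcription factor that drives S1pr1, had -0.62, -0.46, -0.43 and -0.23 in HP1α WT, HP1α KO, HP1γ WT and HP1γ KO. Each was under the fold threshold, with adjusted p of 7.92e-05, 8.53e-04, 8.19e-05 and 0.0194 in edgeR. Foxo1, which acts upstream of Klf2, was not called either. By adjusted p under 0.05 alone it was lower in HP1α WT, HP1γ WT and HP1γ KO. Among genes of lymph node entry, the LFA-1 integrin genes Itgal and Itgb2 and the signalling genes Rap1a, Rap1b and Dock2 were not called in any of the 4. Of the 5 CD44 partner genes with a peak 0 were called. None of the genes named here was called in a comparison of KO with WT or with Treg.

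As a description over the 12 group means, the genes whose TSS peak ran most like that of Ccr7 were Epb41l1, Cyp2d22 and Tmem141, with Pearson correlations of 0.996, 0.993 and 0.992 among 13051 genes with a TSS peak. For S1pr1 they were Zeb1, 1700025G04Rik and Cytip, at 0.984, 0.984 and 0.979. For Cd44 they were Utf1, Lif and Prss30, at 0.986, 0.983 and 0.982, and for Cd69 Tesc, Erbin and Nedd4, at 0.855, 0.823 and 0.820. The 12 points of each share their libraries and the step from naive to transferred cells.

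Motifs were searched on both strands in the 300 bp at the centre of each peak. The AP-1 motif TGANTCA was in 14 of the 86 members, beside 13% of all 71509 peaks, and in 6 of the 16 higher in all 4 comparisons against 1 of the 21 lower in all 4. The 6 were all peaks of Cd44. How often the motif occurs among all peaks that rose, or fell, in all 4 comparisons was not measured. The KLF motif CCNCNCCC was in 23 members beside 35.1% of all peaks, in 4 of the 16 and 9 of the 21. The NFAT motif TTTTCCA was in 9 beside 6.76% (0 of the 16 and 3 of the 21), the RUNX motif TGTGGTT in 6 beside 12.9% (1 and 0), the TCF/LEF motif CTTTGAT in 9 beside 5.76% (0 and 2), the FOXO motif TGTTTAC in 4 beside 4.34% (2 and 1) and the NF-kB motif GGANTTTCC in 2 beside 1.70% (0 and 1). The ETS motif CCGGAAG was in 0 beside 4.39%, which says only that these letters were not in the windows. In the 250 bases before the start site, AP-1 letters were found in 6.14% of 21593 promoters, RUNX letters in 4.22% and KLF letters in 48.9%, among them the Ccr7 promoter shown above. The 21 had a median GC content of 50.3% and the 16 one of 47.4%, beside 48.7% for all peaks.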

How the data were processed

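ATAC-seq was performed on naive, Tconv and TconvTreg cells of both mouse lines, in 36 libraries. As the study describes, the authors trimmed reads with Trim Galore 0.6.7, mapped them with BWA-MEM2, filtered them on mapping quality and blacklisted regions with Samtools, removed duplicates with Picard, called peaks per sample with HMMRATAC, merged them with BEDTools and counted reads per peak with featureCounts 2.0.3. The deposited values are raw counts per peak and library, with no normalization. A merged peak joins calls of all libraries, so a wide peak such as that of Ccr7 averages over the whole interval. Of 71512 intervals, 3 with no width were left out, and 0 per-sample columns were left unused.

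From these counts, peaks were assigned to genes in GENCODE vM39 (GRCm39), normalized with TMM and tested in R 4.3.3 by edgeR 4.0.16 (glmQLFit and glmQLFTest, quasi-likelihood), 1 model per line with a mean per group, after filterByExpr, with Benjamini-Hochberg adjustment over all 71509 (HP1α) or 71508 (HP1γ) peaks. Peaks were called where the adjusted p was below 0.05 with a log2 fold change beyond 1 in either direction. Levels are log2 CPM with a prior count of 2. Log2 fold changes are fitted values and can differ from the difference of mean levels. Depth was 1.49 to 96.8 M reads in peaks and sets the precision of each level. No pair of replicates differed by as little as counting noise. The scripts were tested on simulated data with 200 known changes of 2 on the log2 scale and 1 fixed spread. In the design of HP1α KO against WT TconvTreg 23.5% of them were recovered, and 58.5% in that of HP1α WT TconvTreg against Tconv. In the other designs simulated 97% to 97.5% were recovered. Figures were drawn with Python 3.11.15, pandas 2.3.3 and matplotlib 3.10.9. DESeq2 1.42.0 was an alternative.

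The members and the lists were chosen with earlier results of these data known. Named were the TSS peak of each member, each member peak called with a knockout, with Treg or in an interaction, and for each comparison of Tconv with naive cells up to 3 called peaks per member and direction by smallest p. The other peaks named were chosen after their values were seen. Alternatives were DESeq2, library size or loess offsets in place of TMM, no filter, depth as a covariate, the replicate number as a block, the compared groups alone, all 18 HP1α libraries, each library left out in turn and another rule for assigning peaks. The older quasi-likelihood method of edgeR and the test of the difference between the lines were added after the data were seen. Same-numbered libraries deviated together, with correlations of deviations over 0.1 in each pair, in HP1α KO against WT naive cells (0.25 to 0.50), HP1γ KO against WT TconvTreg (0.15 to 0.32) and HP1γ WT TconvTreg against Tconv (0.20 to 0.29). The pairing rests on these correlations, since no label ties a number to a litter, batch or day. Some genes of the pathway and marker lists are not reported here.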

Additional observations from a re-analysis of the deposited data

Results flagged for a closer look

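The effect of the knockout, KO against WT, differed between the HP1γ and HP1α lines at 12 member peaks in 1 edgeR fit over the libraries kept in both lines, with adjusted p under 0.05 and an absolute difference over 1. Values are the HP1γ effect less the HP1α effect on the log2 scale. In Tconv the difference was -1.37 at the peak 74.1 kb upstream of S1pr1 (adjusted p = 0.0330, edgeR), from effects of 0.09 in HP1α and -1.26 in HP1γ, beside 1.04% of all peaks.

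In TconvTreg 11 of the 86 peaks were flagged, beside 11.1% of all peaks. In both conditions the members were thus flagged about as often as peaks at large. At Ccr7 the differences were -1.98 at 30.3 kb past the TSS (effects of 1.13 in HP1α and -0.75 in HP1γ), -1.33 at 18.2 kb past it (0.46 and -0.78) and -1.35 at 34.4 kb upstream (0.94 and -0.32). At S1pr1 they were -1.25 at 22.2 kb past the TSS (0.55 and -0.62) and 1.58 at 46.3 kb upstream (-1.15 and 0.52). At Cd44 they were 2.27 at 48.3 kb into the gene (-1.44 and 0.90), 2.36 at 36.4 kb into it (-1.36 and 1.09), -1.93 at 11.4 kb upstream (1.03 and -0.81), 2.32 at 53.7 kb upstream (-1.50 and 0.91) and 1.69 at 55.4 kb upstream (-0.85 and 0.91). At Cd69 it was -1.27 at 33.2 kb past the TSS (0.84 and -0.36). These differences rest on 1 HP1α KO library against 2 HP1α WT libraries, and none of the 12 was called in every setting. With all 18 HP1α libraries 7 of the 11 and the 1 in Tconv were called. Without HP1α WT TconvTreg replicate 1, 0 member peaks differed in TconvTreg.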

How the results depend on the processing

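The comparisons of Tconv with naive cells kept their counts within 1.5 times: 41 to 52 of 86 peaks called in HP1α WT (40 to 51 without 1 library), 45 to 49 in HP1α KO (47 to 49), 52 to 53 in HP1γ WT (52 to 54) and 52 to 54 in HP1γ KO (51 to 53). None of the 86 tests of named peaks, 69 of Tconv against naive cells and 17 with a knockout or with Treg, reversed its direction under the alternatives run. Of the 69, 60 were called in every setting, and of the 17, 0 were: each of these was lost in at least 1. Counts with a knockout or with Treg depended on the processing, and the cause was not tested. HP1α KO against WT called 1 with DESeq2 in TconvTreg and 0 to 1 without 1 library in Tconv. HP1α WT TconvTreg against Tconv (5) called 3 with all 18 HP1α libraries, 3 with depth as a covariate, 0 with the replicate block and depth, and 0 to 5 without 1 library. HP1α KO TconvTreg against Tconv (1) called 0 with DESeq2, library size, the older edgeR method or the compared groups alone, 2 with the replicate block, with or without depth, 1 with all 18 HP1α libraries, at another peak (74.2 kb upstream of Cd44, -1.03, adjusted p = 0.0445), and 0 to 1 without 1 library. HP1γ KO against WT in Tconv (3) called 6 with loess offsets, 0 with the older edgeR method or the compared groups alone, and 0 to 7 without 1 library. In TconvTreg (5) it called 9 with DESeq2, 8 with library size, loess offsets, the older edgeR method or the replicate block, 1 with the compared groups alone, and 0 to 16 without 1 library. HP1γ WT TconvTreg against Tconv (1) called 6 with DESeq2, 3 with the older edgeR method, 0 with depth or the compared groups alone, and 0 to 2 without 1 library. HP1γ KO TconvTreg against Tconv (2) called 5 with DESeq2, 4 with loess offsets, 4 with the replicate block and 5 with block and depth, 0 with the compared groups alone, and 2 to 6 without 1 library. The difference of the KO effects between the lines in Tconv (1) was called at 3 peaks with all 18 HP1α libraries, loess offsets or the replicate block, at 0 with library size, the older edgeR method or DESeq2, and at 0 to 4 without 1 library. In TconvTreg (11) it was called at 7 with loess offsets, 4 with depth and 0 to 16 without 1 library. Assigning peaks by gene body alone gave 18 in place of 86, of which 11, 9, 12 and 10 were higher and 1 lower in Tconv of HP1α WT, HP1α KO, HP1γ WT and HP1γ KO. Using any GENCODE TSS gave 15, with 0 of Ccr7, 8 of S1pr1, 1 of Cd44 and 6 of Cd69, of which 2, 0, 1 and 0 were higher and 6, 7, 7 and 7 lower. The replicate block changed the count by over 1.5 times only where named. HP1α KO TconvTreg is 1 library, which cannot be left out.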
